A study of Mus musculus with 6 samples.

Results

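The genes described here encode subunits of the receptors that let chloride into retinal neurons when GABA or glycine binds. The members were chosen by name: *Gabra2*, *Gabra3* and *Gabrb1* of GABA-A receptors, *Gabrr1* and *Gabrr2* of GABA-rho receptors, and *Glra1* and *Glrb* of glycine receptors. All 7 were among the 11339 genes with expression values in P14 mouse retina, 3 of them GABA-A, 2 GABA-rho and 2 glycine receptor genes. Another 7 channel subunits of the same classes are described beside them.

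RNA of 3 *Mll1KO* and 3 WT samples, each pooled from retinas, was sequenced at postnatal day 14. The *Mll1KO* mice were MLL1 fl/fl with Chx10-Cre, a transgene active in progenitor cells of the retina, and the controls are labelled wild type. The strain of both groups is given as C57Bl6/J. The WT mice are not stated to be littermates, so loss of *Mll1*, the Cre transgene and DNA that came with the floxed alleles cannot be told apart. Levels are RPKM, reads scaled to gene length and to the total of the library. Totals recovered from these values were 23836033, 19777206 and 19323511 reads for WT a, b and c. For *Mll1KO* a, b and c they were 23348923, 19855963 and 17961098. The p-values measure the spread between these samples.

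*Kmt2a*, as *Mll1* is now named, was measured at 36.1, 36.9 and 34.6 RPKM in WT and at 22.9, 20.4 and 22.3 RPKM in *Mll1KO*. Every *Mll1KO* library was below every WT library. On the log2(RPKM + 1) scale used throughout, the fold change was -0.69 (SE 0.05; adjusted p = 2.77e-05 in limma). The RPKM covers the whole gene, and its floxed exons were not measured apart.

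GABA-A receptors are chloride channels built of alpha, beta and gamma or delta subunits, and in the retina they sit on bipolar, amacrine and ganglion cells. GABA-rho receptors are built of rho subunits alone, respond slowly and without much desensitization, and are known above all from the axon terminals of bipolar cells. Glycine receptors join alpha subunits with the beta subunit, which binds the scaffold protein gephyrin, and carry the inhibition that glycinergic amacrine cells exert on bipolar and ganglion cells.

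Of the 7 members, 6 passed an adjusted p of 0.05 in limma, against 23.3% of all genes. *Gabra2*, *Gabrb1* and *Gabrr2* were higher in *Mll1KO*, as were 8.81% of all genes, and *Gabra3*, *Gabrr1* and *Glra1* were lower, as were 14.5% of all genes. Each of these 6 genes had no overlap between the groups, as did 41.1% of all genes. *Glrb* did not pass, and its small rise turned to a fall (-0.27) when the libraries were scaled to equal sums over rod genes. At the median the members had a log2 fold change of 0.03, beside -0.03 over all genes. Of the 2643 genes called, 37.8% were higher, whereas 51.9% of those called with TMM factors between the libraries were higher and 2.1% of those called with equal rod sums. Calls in both directions occurred in the GABA-A and in the GABA-rho class, but that of *Gabra3* did not hold with TMM factors and that of *Gabrr2* not with equal rod sums.

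In order of their level in WT, the 14 channel subunits described ran from *Gabrr1* at 43.1 RPKM down to *Gabra4* at 1.30 RPKM. *Gabrr1*, *Gabrr2* and *Glrb*, at 43.1, 24.9 and 16.0 RPKM, stood clear of each other. *Glra1*, at 10.8 RPKM, overlapped with *Gabrr3* (11.2 RPKM) above it and *Gabra3* (9.72 RPKM) below it, whereas *Gabra2* (4.30 RPKM) overlapped with neither of its neighbours. *Gabrb1*, at 2.01 RPKM, overlapped with *Gabrg3* at 2.11 RPKM. In *Mll1KO* the first 4 of the 14 were the same genes in the same order, *Gabra2* moved from place 10 to place 5, where it overlapped with *Gabra3* at place 6, and *Glra1* moved from place 5 to place 7, where it overlapped with *Glra2* at place 8. The order between genes depends on the gene lengths behind the RPKM, which were shorter than the annotated exons for *Gabrb1* (3089 against 13838 bases), *Gabra2* (2392 against 7640), *Gabrr3* (1656 against 4271), *Glra3* (4567 against 9208), *Gabra4* (4123 against 6083), *Glrb* (3337 against 4655) and *Gabrb2* (6246 against 6360).

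**Figure D1:**
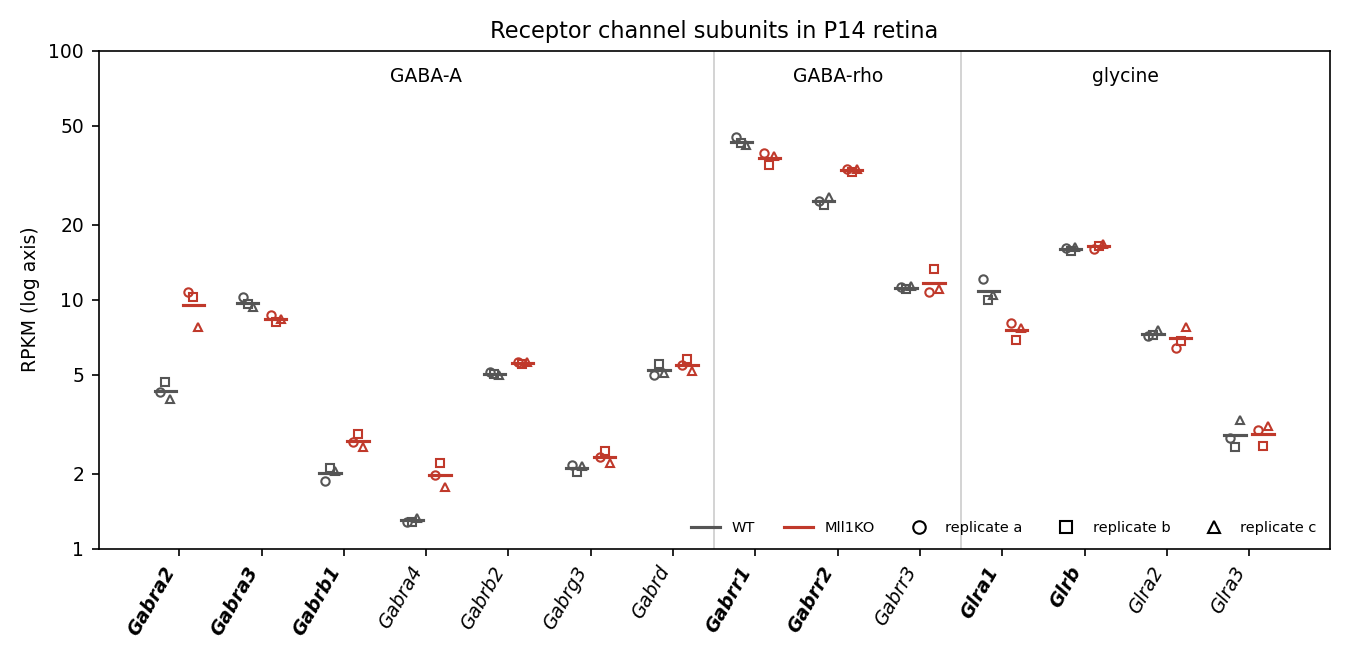
RPKM (log axis) of the 14 channel subunits described, with WT in grey and *Mll1KO* in red. Circles, squares and triangles are replicates a, b and c, short lines are group means (n = 3), and bold names mark the 7 members; *Gabra2* rose from a mean of 4.30 to 9.57 RPKM and *Glrb*, whose direction flips with equal rod sums, had means of 16.0 and 16.4 RPKM.

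Among the GABA-A genes, *Gabra2* encodes the alpha2 subunit, one of the subunits that form the GABA binding site with a beta subunit. Its RPKM was 4.26, 4.65 and 4.0 in WT a, b and c, and 10.7, 10.2 and 7.77 in *Mll1KO* a, b and c. *Mll1KO* c was the lowest of its group but still above every WT library. *Gabra2* was 2.22-fold as high in *Mll1KO* by the ratio of means (9.57 ± 1.57 against 4.30 ± 0.326 RPKM, SD, n = 3). The log2 fold change was 0.98 (SE 0.10, 95% interval 0.76 to 1.21; adjusted p = 0.000168 in limma), above that of 99.8% of all genes or equal to it. The values rest on 185 to 243 reads per WT library and 334 to 597 reads per *Mll1KO* library. The gene length behind the RPKM equalled the exon bases of the GENCODE annotation for 53.4% of all matched genes, and *Gabra2* was not among them.

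*Gabra3* encodes the alpha3 subunit, which takes the same place in the receptor. It was measured at 10.2, 9.60 and 9.36 RPKM in WT and at 8.70, 8.15 and 8.33 RPKM in *Mll1KO*. The groups lay close together without overlap. *Gabra3* was at 86.3% of WT, with a log2 fold change of -0.19 (SE 0.05; adjusted p = 0.0255 in limma). This call did not hold with TMM, RLE or upper-quartile factors between the libraries (adjusted p = 0.0563, 0.0609 and 0.0516), nor without WT a, WT b, *Mll1KO* b or *Mll1KO* c (adjusted p = 0.0779, 0.0677, 0.0785 and 0.0774), and the adjusted p over all 16 alternatives ranged from 2.5e-05 to 0.0785.

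*Gabrb1* encodes the beta1 subunit, which in other tissues is found in a minority of GABA-A receptors. The libraries held 1.87, 2.11 and 2.04 RPKM in WT and 2.69, 2.89 and 2.56 RPKM in *Mll1KO*. Again all *Mll1KO* libraries were above all WT libraries, at a low level of 122 to 194 reads per library. *Gabrb1* was at 135% of WT, with a log2 fold change of 0.30 (SE 0.06; adjusted p = 0.00499 in limma). With equal rod sums it was 0.08 and did not pass (limma adjusted p = 0.278). Limma-voom on the reads recovered from RPKM, which needs no pseudocount, gave 0.44 (SE 0.10; adjusted p = 0.00761).

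Of the GABA-A genes that are not members, 4 are described, and each moved less than *Gabra2*. *Gabra4*, for the alpha4 subunit of receptors outside synapses, was higher, with 1.28, 1.28 and 1.33 RPKM in WT and 1.97, 2.20 and 1.76 RPKM in *Mll1KO*, with a log2 fold change of 0.37 (SE 0.06; adjusted p = 0.00242 in limma). *Gabrb2*, *Gabrg3* and *Gabrd*, for a beta, a gamma and the delta subunit, did not pass, with log2 fold changes of 0.12, 0.10 and 0.06 (limma adjusted p = 0.0979, 0.211 and 0.490), and all 3 turned from higher to lower with equal rod sums. *Gabrb2* measured 5.04 ± 0.0744 RPKM in WT and 5.57 ± 0.0562 RPKM in *Mll1KO* (SD, n = 3), without overlap between the groups.

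*Gabra2*, *Gabra4* and *Gabrb1* are neighbours on chromosome 5, and all 3 were higher in *Mll1KO*. With equal rod sums *Gabra2* (0.71) and *Gabra4* (0.17) were still called higher and *Gabrb1* (0.08) was not. In GRCm38, *Gabra2* (ENSMUSG00000000560) lies at chr5:70957597-71095849 on the minus strand, *Gabra4* (ENSMUSG00000029211) at chr5:71569749-71658308 on the minus strand and *Gabrb1* (ENSMUSG00000029212) at chr5:71658113-72149037 on the plus strand. *Gabra4* and *Gabrb1* start head to head and overlap by 196 bases as annotated genes, and 0.8% of the exon bases of *Gabra4* and 0.3% of those of *Gabrb1* lie within the other gene's exons. The nearest listed gene before the cluster, *Gnpda2*, ends 1365256 bases away and had a log2 fold change of -0.03 (limma adjusted p = 0.809). The nearest after it, *Commd8*, begins after 7537 bases and had a log2 fold change of -0.04 (limma adjusted p = 0.681). Of the 5 other listed genes within 1 Mb of the cluster, 1 passed the test, beside 23.3% of all genes. It was the rod channel gene *Cnga1* at 0.27 (-0.05 and not past the threshold with equal rod sums), named after its value was seen.

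**Figure D2:**
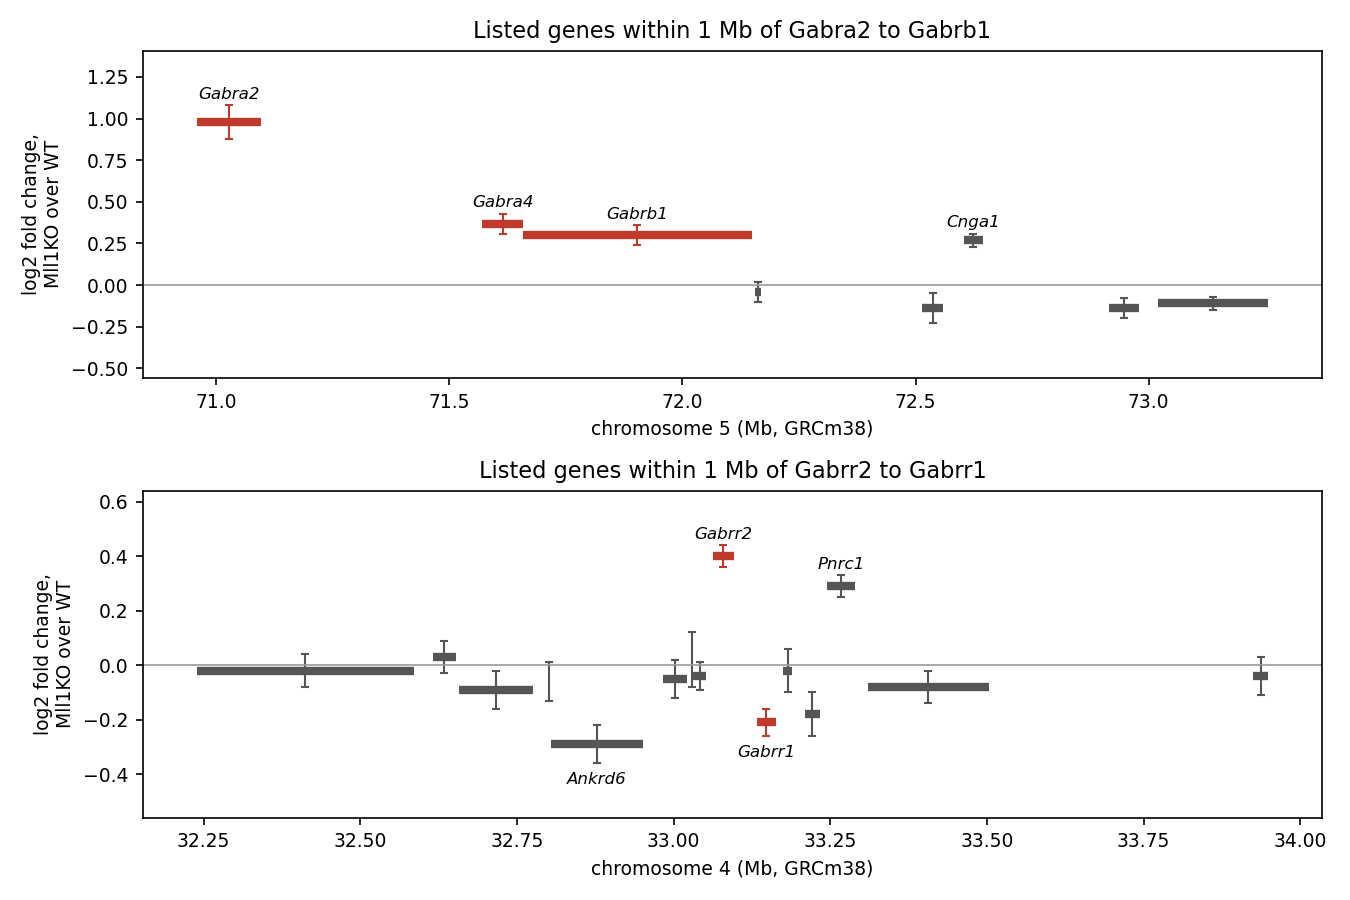
Log2 fold change of *Mll1KO* over WT (y axis) against position in Mb (x axis, GRCm38) for listed genes within 1 Mb of the chromosome 5 and chromosome 4 clusters. Bars span each gene, error bars are standard errors from limma, clustered subunits are red, and other genes are grey with a name where they passed the test; *Gabra2*, *Gabra4* and *Gabrb1* lie at 0.98, 0.37 and 0.30, and *Gabrr2* and *Gabrr1* at 0.40 and -0.21.

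Among the GABA-rho genes, *Gabrr1* encodes rho1, the best known subunit of the slow GABA receptors of bipolar cells. Its RPKM was 44.9, 42.7 and 41.7 in WT and 38.7, 34.9 and 37.8 in *Mll1KO*. All *Mll1KO* libraries lay below all WT libraries, *Mll1KO* b lowest. *Gabrr1* was at 86.2% of WT (43.1 ± 1.6 against 37.1 ± 1.96 RPKM, SD, n = 3), with a log2 fold change of -0.21 (SE 0.05; adjusted p = 0.0130 in limma). *Gabrr1* was the most abundant of the 14 channel subunits described in both groups.

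*Gabrr2* encodes rho2, which can join rho1 in one receptor. It was measured at 25, 23.9 and 25.8 RPKM in WT and at 33.6, 32.7 and 33.6 RPKM in *Mll1KO*. The 3 *Mll1KO* libraries lay close together, above all WT libraries. *Gabrr2* was at 133% of WT by the mean, with a log2 fold change of 0.40 (SE 0.04, 95% interval 0.31 to 0.50; adjusted p = 0.000175 in limma), above or level with 97.7% of all genes. With equal rod sums it was 0.09 and did not pass (limma adjusted p = 0.106). *Gabrr3*, for rho3, did not pass and turned from higher to lower with equal rod sums, with 11.2 ± 0.182 RPKM in WT and 11.7 ± 1.40 RPKM in *Mll1KO* (SD, n = 3; log2 fold change 0.05, limma adjusted p = 0.677). *Gabrr3* in *Mll1KO* b, at 13.3 RPKM, stood above the 10.7 and 11 RPKM of *Mll1KO* a and c.

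The rho genes that moved in opposite directions are neighbours on chromosome 4 and are read from the same strand. *Gabrr2* (ENSMUSG00000023267) lies at chr4:33062999-33095865 and *Gabrr1* (ENSMUSG00000028280) at chr4:33132521-33163588, both on the plus strand, with 36655 bases between them. On the other side of *Gabrr2*, *Ube2j1* had a log2 fold change of -0.04 (limma adjusted p = 0.617), and beyond *Gabrr1*, *Pm20d2* had -0.02 (limma adjusted p = 0.874). Of the 13 other listed genes within 1 Mb, 2 passed the test, beside 23.3% of all genes. *Pnrc1* was higher (0.29, but -0.03 and not past the threshold with equal rod sums) and *Ankrd6* lower (-0.29). Both were named here after their values were seen. The exons of *Gabrr1* and *Gabrr2* overlap no other annotated gene, and 2.5% of the 50-base stretches of *Gabrr1* transcripts and 2.8% of those of *Gabrr2* transcripts also occur in transcripts of another gene.

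Since *Gabrr2* rose and its neighbour *Gabrr1* fell, the sequence before their starts is shown for comparison. RefSeq promoter sequences of GRCm38.p6, from 250 bases before to 50 bases after a start, were searched on both strands for TAATCC, the core motif that the photoreceptor and bipolar cell factors OTX2 and CRX are known to bind, which 7.1% of all 32851 promoters of this length hold. Among promoters of listed genes 5.8% held a match. Of these neighbours, *Gabrr2* held a match once and *Gabrr1* none. Other motifs searched ran the other way, GGGCGG with 0 matches in *Gabrr2* and 3 in *Gabrr1*, and CANNTG (N for any base) with 1 and 3. A match describes the letters and is no measure of binding. The sequences stop before the first annotated exon and lie at chr4:33062862-33062998 on the plus strand for *Gabrr2* and chr4:33132306-33132520 on the plus strand for *Gabrr1*. They are written 5′ to 3′ with TAATCC or its reverse complement in capitals.
Gabrr2: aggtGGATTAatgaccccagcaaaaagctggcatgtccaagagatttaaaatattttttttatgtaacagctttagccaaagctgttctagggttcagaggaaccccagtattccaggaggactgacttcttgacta
Gabrr1: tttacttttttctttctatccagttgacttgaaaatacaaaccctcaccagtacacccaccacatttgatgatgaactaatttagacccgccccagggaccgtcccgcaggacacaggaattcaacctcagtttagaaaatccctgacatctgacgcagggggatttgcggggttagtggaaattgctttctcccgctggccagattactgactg

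Over the full promoter, CG dinucleotides numbered 9 in *Gabrr1* and 2 in *Gabrr2*, beside a median of 7 over all promoters and of 21 over those of listed genes.

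Among the glycine receptor genes, *Glra1* encodes alpha1, the subunit of fast glycine receptors on OFF bipolar and on ganglion cells. It was measured at 12.1, 10 and 10.4 RPKM in WT and at 8.07, 6.91 and 7.70 RPKM in *Mll1KO*. WT a was the highest library and the groups did not overlap. *Glra1* was at 69.9% of WT (10.8 ± 1.10 against 7.56 ± 0.596 RPKM, SD, n = 3), with a log2 fold change of -0.46 (SE 0.08, 95% interval -0.63 to -0.29; adjusted p = 0.00232 in limma). Only 1.74% of all genes had a log2 fold change as low or lower. *Glra1* (ENSMUSG00000000263) lies at chr11:55514238-55608198 on the minus strand, and 5.8% of its exon bases overlap another annotated gene, *Gm12236*.

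*Glrb* encodes the beta subunit that anchors the receptors to gephyrin. Its RPKM was 16.1, 15.7 and 16.2 in WT and 16.0, 16.4 and 16.7 in *Mll1KO*. The groups overlapped. The log2 fold change was 0.03 with a 95% interval of -0.06 to 0.12 (limma adjusted p = 0.627), so that a change as large as that of *Glra1* lay outside the interval. *Glra2* and *Glra3*, for the alpha2 and alpha3 subunits, had log2 fold changes of -0.06 and 0.01 (limma adjusted p = 0.570 and 0.925), the second turning to -0.23 with equal rod sums, and *Glra4* was not listed. Of the 4 glycine receptor genes, only *Glra1* passed the test, but with equal rod sums *Glrb* (-0.27), *Glra2* (-0.34) and *Glra3* (-0.23) were called lower too, and the difference of *Glra1* from the other alpha genes was not tested.

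Within each library, the alpha genes of the glycine receptor showed this as a change of shares. *Glra1* made up 54.9%, 50.6% and 48.9% of their summed RPKM in WT and 46.2%, 42.4% and 41.5% in *Mll1KO*. *Glra2* had 34.9% ± 2.10 in WT and 40.1% ± 2.97 in *Mll1KO*, and *Glra3* 13.6% ± 1.59 and 16.6% ± 0.669 (SD, n = 3). *Glra2* was thus about level with *Glra1* in *Mll1KO* b and c. The size of the shares depends on the gene lengths too, as that behind *Glra3* was 4567 bases against 9208 annotated.

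The contrast within each class was taken as the log2 ratio of a pair of genes in the same library, a value that library scaling cannot move. *Gabra2* to *Gabra3* stood at -1.26, -1.05 and -1.23 in WT and at 0.30, 0.33 and -0.10 in *Mll1KO*. The difference was 1.35, the largest of the 3 pairs. *Gabrr1* to *Gabrr2* stood at 0.84, 0.83 and 0.69 in WT and at 0.21, 0.09 and 0.17 in *Mll1KO*, a difference of -0.63, which brought the pair near to equal levels. *Glra1* to *Glrb* stood at -0.41, -0.65 and -0.65 in WT and at -0.99, -1.25 and -1.12 in *Mll1KO*, a difference of -0.55. In each pair all 3 *Mll1KO* libraries were on one side of all 3 WT libraries. For *Gabra2* to *Gabra3* and *Gabrr1* to *Gabrr2* this already follows from the single genes, which lay apart between the groups in opposite directions, so the ratio adds no separate test there. *Gabrb1* and the other subunits are in no pair. The two-sided exact permutation p was 0.1 for each pair, and 0.1 after adjustment over the 3 pairs, which is the smallest that 3 against 3 libraries allow and cannot pass 0.05.

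**Figure D3:**
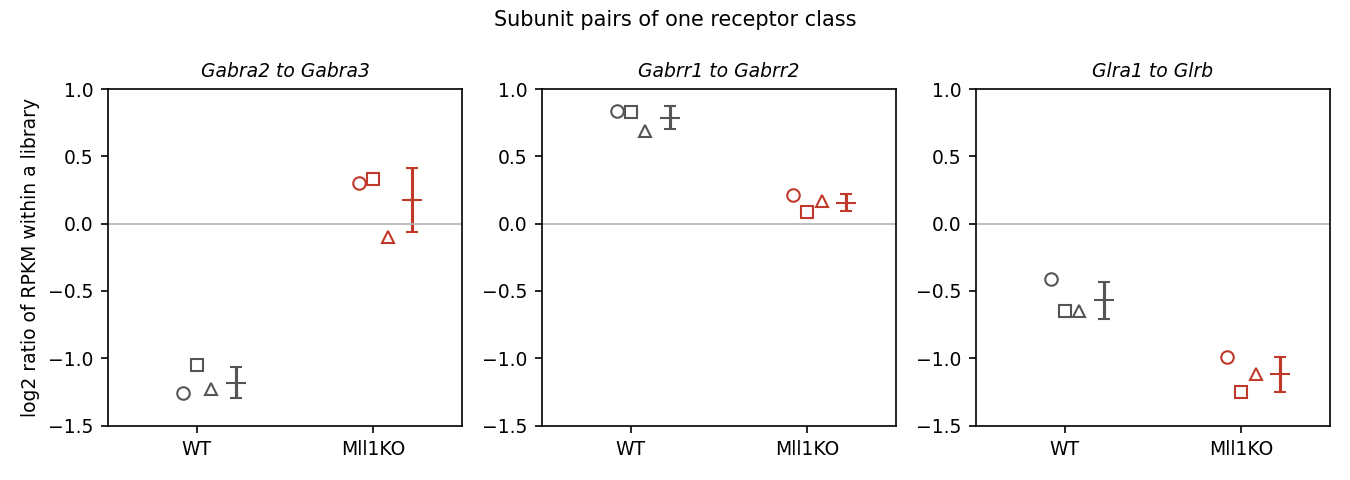
Log2 ratio of the RPKM of each pair of subunit genes within a library (y axis) in WT (grey) and *Mll1KO* (red). Circles, squares and triangles are replicates a, b and c, and horizontal lines with bars are means and SD (n = 3); the mean moved from -1.18 to 0.18 for *Gabra2* to *Gabra3*, from 0.79 to 0.16 for *Gabrr1* to *Gabrr2* and from -0.57 to -1.12 for *Glra1* to *Glrb*.

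The members of a class were also summed. The sum of the GABA-A members was 16.3, 16.4 and 15.4 RPKM in WT and 22.1, 21.3 and 18.7 RPKM in *Mll1KO*. That of the GABA-rho members was 69.9, 66.6 and 67.6 RPKM in WT and 72.3, 67.7 and 71.3 RPKM in *Mll1KO*, with overlap. That of the glycine receptor members was 28.1, 25.8 and 26.6 RPKM in WT and 24.1, 23.3 and 24.4 RPKM in *Mll1KO*. The GABA-A members were thus at 129% of WT, the GABA-rho members at 104% and the glycine members at 89.3%, as a description without a test, beside 125% for the sum over rod genes. Over the 7 GABA-A subunits described the sum was at 121% of WT, over the 3 GABA-rho subunits at 104% and over the 4 glycine receptor subunits at 91.5%. GABA-A subunits that are not described are in none of these sums. The sum over the listed GABA-A subunits other than the members, some of them not described, was at 103% of WT. The sums weight genes by the lengths behind the RPKM, shorter than the annotated exons for *Gabra2* (2392 against 7640 bases) and *Gabrb1* (3089 against 13838). For *Gabra3* both were 3924 bases, so the 129% depends on these lengths, and sums with annotated lengths were not taken.

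In whole retina, fewer cells of a type and less RNA per cell cannot be told apart. Markers of the cells that carry these receptors moved as well. Their counts, and those of the other marker lists below, stand beside 14.5% of all genes lower and 8.81% higher. With equal rod sums 9633 of 11339 genes were called lower. Of 20 bipolar markers 10 were lower and the rest did not pass (20 lower with equal rod sums), with a summed level of 789, 779 and 767 RPKM in WT and 662, 663 and 678 RPKM in *Mll1KO* (85.7% of WT). The lowest was *Neto1* (-0.81) and the highest *Bhlhe23* (0.09). Beside this sum, *Gabrr1* and *Gabra3* were at 86.2% and 86.3% of WT, and *Gabra2* and *Gabrr2* at 222% and 133%. Of 15 listed amacrine markers 7 were lower and 2 higher (7 and 5 with TMM factors, 11 and 0 with equal rod sums), with sums of 688, 689 and 710.0 RPKM in WT and 623, 602 and 636 RPKM in *Mll1KO*. They ran from *Calb2*, the most abundant (-0.50), to *Gad1* (0.30), and *Gad1*, *Gad2*, *Slc32a1* and *Slc6a9* are also among the transmitter genes given further on. Of 9 listed ganglion cell markers 8 were lower, with sums of 596, 561 and 592 RPKM in WT and 469, 441 and 397 RPKM in *Mll1KO*. They ran from *Pou4f2* (-0.89) to *Slc17a6* (-0.15), with *Sncg* most abundant and *Pou4f3* and *Isl2* not listed. Beside 69.9% for *Glra1*, the sums stood at 74.7% of WT for ganglion, 85.7% for bipolar, 89.1% for amacrine and 68.6% for horizontal cell markers. The part of these cell types in the receptor values was not tested.

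Horizontal cell markers were lower in 8 of 9 listed genes, from *Slc4a3* (-0.70) to *Calb1* (-0.13), with *Nefm* most abundant and *Lhx1* and *Gja10* not listed. Their sum was at 68.6% of WT, with 161, 163 and 159.8 RPKM in WT and 115, 108 and 109 RPKM in *Mll1KO*. *Nefm* and *Prox1*, at means of 70.4 and 37.1 RPKM in WT, weigh most in it. The paper lists the PROX1 antibody as marking amacrine and bipolar cells too, and that against neurofilament M as marking axons. The sum is therefore not specific to horizontal cells. Müller glia, rods and cones had more genes higher than lower, which turned for Müller glia (2 higher, 6 lower) and rods (2 higher, 5 lower) with equal rod sums. The rod markers themselves set this scaling, so their balance under it says nothing about rods. Of 12 Müller glia markers 6 were higher and 1 lower, from *Clu* (0.68) to *Vim* (-0.47), and their sum, led by *Glul*, was 1475, 1451 and 1602 RPKM in WT and 1860.0, 1953 and 1915 RPKM in *Mll1KO*. Of 17 rod markers 13 were higher and 1 lower, from *Guca1b* (0.83) to *Nr2e3* (-0.36). The rod sum was 18244, 17299 and 17821 RPKM in WT and 22163, 22632 and 21951 RPKM in *Mll1KO*. Of 10 cone markers 7 were higher and 1 lower (3 and 2 with equal rod sums), from *Arr3* (0.66) to *Opn1sw* (-0.44), with *Opn1mw* most abundant and the sum at 119.6% of WT. The part of these cells in the receptor values was not tested either.

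Scaling the libraries to equal rod sums shifted the median over all genes from -0.03 to -0.31, and the receptor genes moved with it. *Gabra2* was then at 0.71, *Gabra4* at 0.17, *Gabrr2* at 0.09 and *Gabrb1* at 0.08, the last 2 no longer past the threshold, while *Glrb* was at -0.27 (limma adjusted p = 0.000451). Over all alternatives the adjusted p ranged from 5.4e-05 to 0.106 for *Gabrr2*, from 0.00304 to 0.278 for *Gabrb1* and from 0.000451 to 0.847 for *Glrb*. *Glra1*, *Gabrr1* and *Gabra3* were at -0.75, -0.52 and -0.48. Relative to the median of all genes under the same scaling, *Gabra2* was 1.02 above, *Gabrr2* 0.40 and *Gabrb1* 0.39 above and *Glrb* 0.04 above, and *Glra1*, *Gabrr1* and *Gabra3* stood at -0.44, -0.21 and -0.17. The direction given for *Gabrr2*, *Gabrb1* and *Glrb* is relative to the retina as a whole.

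Markers of tissues beside the neural retina varied between libraries. Of 5 listed pigment epithelium markers 0 passed in limma (2 lower with equal rod sums), 1 at an unadjusted p under 0.05, from *Rgr* (0.30) to *Pmel* (-1.48) with *Ttr* most abundant and *Rpe65*, *Best1* and *Lrat* not listed. Their sum was 175, 103 and 254 RPKM in WT and 93.3, 187 and 95.6 RPKM in *Mll1KO*, high in libraries of both groups. Of the lens markers only *Cryaa* was listed, at 32.1 RPKM in *Mll1KO* a, 12.4 in *Mll1KO* b and 6.54 to 7.51 in the other 4 libraries. Their part in the receptor values was not tested. Of 4 listed microglia markers 0 passed in limma (2 lower with equal rod sums), 0 at an unadjusted p under 0.05, from *C1qc* (0.15) to *C1qb* (-0.12), the most abundant. Of 7 listed endothelium and pericyte markers 1 was higher and 2 lower (0 and 5 with equal rod sums), from *Flt1* (0.32) to *Cldn5* (-0.35), with *Rgs5* most abundant and the sum at 87.4% of WT.

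Of 24 listed scaffold and trafficking genes, which serve to hold these receptors at the synapse, 2 were higher and 3 lower, beside 8.81% and 14.5% of all genes (5 and 2 with TMM factors, 20 lower with equal rod sums), with a median log2 fold change of 0.00. Gephyrin (*Gphn*), which clusters glycine and many GABA-A receptors, was at 26.4 ± 1.12 RPKM in WT and 24.4 ± 0.548 RPKM in *Mll1KO* (SD, n = 3; log2 fold change -0.11, limma adjusted p = 0.0978). *Nlgn2* and *Lhfpl4*, for neuroligin 2 and a GABA-A receptor partner, had log2 fold changes of -0.11 and 0.13 (limma adjusted p = 0.0976 and 0.0944). With equal rod sums *Gphn* (-0.42) and *Nlgn2* (-0.43) were called lower, and *Lhfpl4* was called higher with TMM factors (0.16) and lower with equal rod sums (-0.19). *Map1b*, whose protein binds rho1, was lower at -0.24 (limma adjusted p = 0.0164, up to 0.0699 over the alternatives). *Sqstm1*, whose protein has been linked to rho receptors, was higher at 0.20 (limma adjusted p = 0.0199, up to 0.0809 over the alternatives), but -0.12 with equal rod sums (limma adjusted p = 0.0618). The extremes were *Gabarapl1* (0.26, but -0.06 and not past the threshold with equal rod sums), of the family that carries GABA-A receptors to the surface, and *Trak2* (-0.30), a transport adaptor.

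Chloride transport sets whether these channels inhibit. Of 11 genes 2 were lower, beside 14.5% of all genes (1 higher and 1 lower with TMM factors, 11 lower with equal rod sums), with a median log2 fold change of -0.10. The exporter gene *Slc12a5* (KCC2) was at 171 ± 5.06 RPKM in WT and 184 ± 4.28 RPKM in *Mll1KO* (SD, n = 3; log2 fold change 0.10, limma adjusted p = 0.0976), called higher with TMM factors (0.14) and lower with equal rod sums (-0.22). The importer gene *Slc12a2* (NKCC1) was at 10.3 ± 0.212 and 9.13 ± 0.342 RPKM (SD, n = 3; log2 fold change -0.15, limma adjusted p = 0.0440), a call that held in only 5 of the 16 alternatives and not with TMM factors (limma adjusted p = 0.0952). *Slc12a4* was the highest of the list at 0.12 and *Slc12a7* the lowest at -0.34.

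Genes of the transmitters themselves were called in both directions. Of 10 genes for synthesis, packaging, uptake and breakdown 5 were higher and 2 lower, beside 8.81% and 14.5% of all genes (1 and 6 with equal rod sums), with a median log2 fold change of 0.17. The GABA synthesis genes parted, *Gad1* at 0.30 (limma adjusted p = 0.00684) and *Gad2*, the lowest of the list, at -0.49 (limma adjusted p = 0.00165). The glycine transporter gene *Slc6a9* was higher at 0.24 (limma adjusted p = 0.00396), whereas *Slc32a1*, for the vesicular transporter of both transmitters, had 0.16 and did not pass (limma adjusted p = 0.0665). With equal rod sums the calls of *Gad1* (-0.02) and *Slc6a9* (-0.07) did not hold, and *Slc32a1* was called lower (-0.16), whereas it was called higher with TMM factors (0.19). The highest was *Slc6a13* at 0.73, for a GABA transporter. Of the metabotropic GABA-B genes, *Gabbr2* was lower at -0.25 (limma adjusted p = 0.00499) and *Gabbr1*, at -0.01, did not pass (limma adjusted p = 0.934), and both were called lower with equal rod sums (-0.56 and -0.32).

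*Gabra3* (ENSMUSG00000031343; chrX:72432681-72656848, minus strand) and *Glrb* (ENSMUSG00000028020; chr3:80843599-80913660, minus strand) have no other receptor subunit of these classes as their nearest listed gene. Beside *Gabra3*, *Prrg3* and *Cetn2* had log2 fold changes of 0.09 and 0.02. Beside *Glrb*, *Gria2* and *Ctso* had 0.04 and 0.03, and beside *Glra1*, *G3bp1* and *Gria1* had -0.04 and -0.03. These 6 neighbours had adjusted p-values from 0.316 to 0.827 in limma.

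The patterns most like each member were found over the 6 libraries by the root mean square difference of log2(RPKM + 1), each gene centred on its own WT mean. For *Gabra2* they were *Igfn1* and *Gfap*, at a difference of 0.112 for either. Their own log2 fold changes were 1.10 and 0.97, and the distance was larger than for any other member. *Gabrr2* was nearest to *Gas1* and *Tmem136* (0.026 for either), and *Gabrb1* to *Dohh* and *Tmem198b* (0.026 and 0.027). Of the genes that fell, *Gabrr1* was nearest to *Dcakd* and *Fam196a* (0.011 and 0.018), *Gabra3* to *Tgfb1i1* and *St8sia3* (0.010 and 0.015), and *Glra1* to *Gltscr1* and *Trim68* (0.033 and 0.048). *Glrb* was nearest to *Vwa8* and *Pak2* (0.011 for either), which did not pass the test either.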

How the data were processed

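RNA-seq of 6 P14 retina samples, 3 *Mll1KO* and 3 WT, was analysed. The authors aligned single-end reads with STAR 2.0.4b to mm10, counted them per gene with featureCounts 1.45 of Subread, dropped genes that did not exceed a CPM of 5 in 5 or more samples and deposited RPKM, scaled to gene length and library total. Deposited columns of the authors' own comparison, made with edgeR (the labels give version 3.17.9, the paper another), hold a log2 fold change, a mean log2 CPM, a p-value and an FDR per gene and were not used. The table held 11404 lines for 11339 genes (59 IDs repeated), and 18 symbols turned into dates were restored. Coordinates and exons come from GENCODE vM21 of GRCm38, which matched 11329 genes, and promoters from RefSeq (GRCm38.p6). Whether counting used strand is not given in the sources used here, so reads of overlapping genes cannot be told apart.

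All genes were tested with limma 3.58.1 (R 4.3.3) on log2(RPKM + 1), with a variance trend and Benjamini-Hochberg adjustment over 11339 genes, at a threshold of 0.05. A fold change on this scale understates the change of low genes. The authors' count test was not repeated. Pair ratios were tested with a two-sided exact permutation test. Library totals and whole reads were recovered from RPKM for 11338 genes within 0.05 reads, the lowest count being 90 reads. Multiples of a fitting gene length fit too. The annotated exon length was therefore taken where it fitted, and otherwise the smallest length that met the CPM filter. For 49 genes some fitting length was not a multiple of the smallest. The lengths and read counts given rest on this choice. Alternatives were TMM, RLE and upper-quartile factors, equal rod sums, pseudocounts of 0.1 and 5 RPKM, a mean RPKM of at least 1, limma-voom on the recovered reads, a term for the replicate letter and each library left out. A term for pigment epithelium markers was chosen after seeing the data.

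Named were the members, other listed subunits, *Kmt2a*, synapse and transporter genes with a direct place at these receptors, the extremes of each list with the most abundant marker, chromosome neighbours and the 2 genes most like each member, though some genes that this rule covers are not described. Members and lists were chosen with earlier results of these data known. The labels name separate samples but not whether they came from separate litters, so p-values measure the spread between these samples. The scripts were tested on simulated data. Tables and plots were made in Python 3.11.15 (numpy 2.4.6 and pandas 2.3.3 for tables, scipy 1.17.1 for permutations, matplotlib 3.10.9 for plots).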

Additional observations from a re-analysis of the deposited data

How the results depend on the processing

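*Gabra2*, *Gabrr1*, *Glra1* and, among the other subunits, *Gabra4* kept their direction and stayed past the threshold in each of 16 alternatives. Their log2 fold changes ranged from 0.64 to 1.15, from -0.52 to -0.17, from -0.75 to -0.33 and from 0.15 to 0.60. *Gabra3* was -0.16 and not past the threshold with TMM, RLE and upper-quartile factors (limma adjusted p = 0.0563, 0.0609 and 0.0516), and -0.21 to -0.16 with each library left out, and the cause was not tested. Equal rod sums gave 0.08 for *Gabrb1*, 0.09 for *Gabrr2* and -0.27 for *Glrb*, and turned *Gabrb2* (-0.15), *Gabrd* (-0.21), *Gabrr3* (-0.25) and *Glra3* (-0.23) to lower, by construction, since the rod sum was higher in *Mll1KO*. *Gabrg3* turned too (-0.12) but passed under neither scaling, and *Glra2* (-0.34) and *Gabbr1* (-0.32) were then called lower. Equal rod sums called 9837 genes in place of 2643, with 2.1% higher in place of 37.8%, and TMM factors gave 51.9% higher. With each library left out the count ranged from 1704 (without WT b) to 2536, with 1757 without *Mll1KO* c, and fewer samples were then tested. Same-letter samples did not deviate together (r = -0.039, -0.19 and -0.007). Deviations within such small groups cannot show whether the letters pair the samples, for instance by litter, so this was left undecided. The fit with the replicate block called 2242 genes. Ratios of (RPKM + 1) differed by 1.17, -0.61 and -0.49, and without single libraries the ratios of RPKM differed by 1.28 to 1.49, -0.68 to -0.60 and -0.61 to -0.47. The pigment epithelium term, chosen after seeing the data, called 2200 genes. Depth limits *Gabrb1* and *Gabra4* most, with as few as 122 and 104 reads in a library.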
